A study of Danio rerio with 18 samples.

Results

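The control pronephric duct at 30 hours after fertilisation is described here from 10 of the 18 RNA sequencing libraries of a zebrafish study. The 10 are all the libraries labelled as injected with the ctrl morpholino, and the libraries injected against actl6a were not used. The control embryos were wild type (WT) in the labels and came from the transgenic Na, K-ATPase alpha1A4:GFP line, whose GFP marks the pronephros. A standard control morpholino, an antisense oligonucleotide used as a negative control, had been injected at the 1-cell stage, so no library comes from an uninjected embryo. Embryos were treated with DTT at room temperature and then with collagenase I at a raised temperature, and fragments were picked by eye for GFP. A library therefore holds whatever tissue came away with a green fragment. The labels do not say whether a library is 1 duct or a pool of fragments, or whether the 10 libraries come from separate injections. Differences between libraries may thus be technical or biological, and in bulk tissue fewer cells of a type and less RNA per cell cannot be told apart.

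The pronephros is the first kidney of the fish embryo. It consists of a midline glomerulus with podocytes and a pair of tubules whose segments run from proximal to distal and into a duct that ends at the cloaca. Proximal segments take up proteins, sugars, amino acids and phosphate through the endocytic receptors megalin and cubilin and through solute carriers, and distal segments take up salt. The basolateral Na,K-ATPase drives this transport. Many cells along the tubule carry motile cilia that push the fluid along, and these need axonemal dyneins, the radial spokes and central pair of the axoneme, and intraflagellar transport (IFT), the traffic of particles along the cilium.

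Total counts ran from 1564673 in replicate 4 to 3301873 in replicate 3, and 17461 to 23313 accessions had a count. Values below are CPM, counts per 1000000 of the library total scaled by edgeR's TMM factors, given as the mean ± SD over the 10 libraries (n = 10) or as the lowest, median and highest library. Where no read was counted, up to 3 counts remain possible, or 0.909 to 1.92 CPM depending on the library, and this covers counting error only. CPM is not divided by transcript length, so its order between genes is an order of counts, not of transcripts. Biological CV is the coefficient of variation between libraries after the part due to counting was taken out. Of 30714 accessions listed, 11075 (36.1%) reached a mean of 10 CPM and held 96.4% of all counts. Of these, 5787 reached 50 CPM and 50 reached 1000 CPM. The 36.1% is the background share for the counts of list members at 10 CPM given below. It covers every accession, 11501 of which have no symbol, whereas a list member is a named gene taken at its highest accession. The share over named genes alone was not computed, so the 36.1% is not a like comparison for the lists. As a check for a library deposited under 2 names, the dispersion index of each pair was computed, and the smallest of 45 was 8.08 where counting alone gives 1. The barcodes of replicates 1 to 4 begin with AA and those of replicates 5 to 10 with T. Between these 2 sets 1 of 14995 accessions tested, 0.00667%, passed the 0.05 threshold of Benjamini-Hochberg adjusted p from the quasi-likelihood test of edgeR, and 436 had an unadjusted p under 0.05. That accession, of cdc42ep4a, was named after its values were seen. Its level was 0.501, 0.923, 0.577 and 1.94 CPM in replicates 1 to 4 and 11.6 to 65.6 CPM in the others.

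The accessions with the most counts came from mitochondrial energy supply, the Na,K-ATPase and the cytoskeleton. The 20 with the highest mean CPM held 3.44% ± 0.484 (SD, n = 10) of the counts of a library. Among them were 5 genes of the mitochondrial genome: COX1, COX2 and COX3 of cytochrome oxidase, CYTB of complex III and ATP6 of the ATP synthase. COX2 stood at 2228 ± 585 CPM. Nuclear genes of the same machinery were atp5mc1 (1527 ± 210.5 CPM) and atp5f1e (1522 ± 219 CPM) of the ATP synthase and cox7c (1478 ± 175 CPM) of cytochrome oxidase. The ADP/ATP carrier slc25a5, which moves ATP out of the mitochondrion, stood at 2137 ± 488 CPM. All 3 kinds of Na,K-ATPase subunit were in the group, with the beta subunit atp1b1a at 2016 ± 453 CPM, the regulatory subunit fxyd2 at 1648 ± 391 CPM and the alpha subunit atp1a1a.4 at 1626 ± 324 CPM. The cytoskeleton gave actb2, actb1, the actin-monomer binding tmsb4x and the keratin krt18a.1. The chaperone hsp90aa1.2, the non-coding zgc:158463, zgc:171772 and the accession XM_001922608.6 completed the 20.

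**Figure D1:**
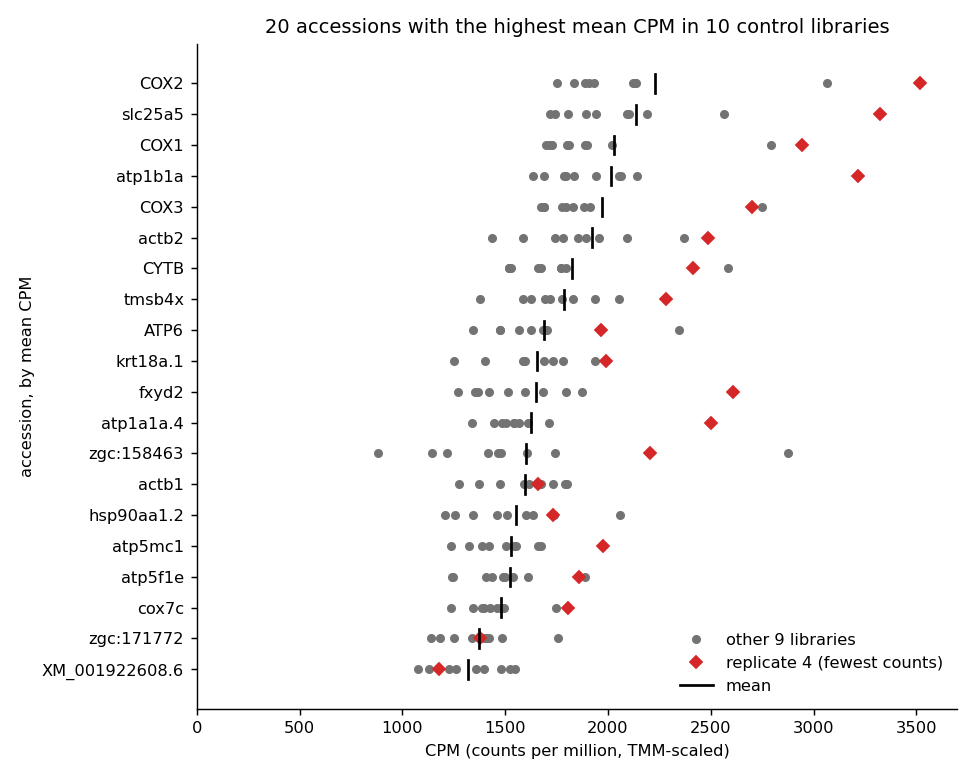
CPM of the 20 accessions with the highest mean, 1 row each, in 10 control libraries. Grey points are 9 libraries, red diamonds replicate 4, which has the fewest counts, and black bars the mean. Replicate 4 was the highest library for COX2, slc25a5, COX1, atp1b1a, actb2, tmsb4x, krt18a.1, fxyd2, atp1a1a.4, atp5mc1 and cox7c.

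Counts of these accessions did not keep pace with depth. The largest count in any library was 6361, in the deepest library, and the largest in the shallowest library was 5424. Replicate 3 has 2.11 times the total of replicate 4, yet the median ratio of their counts over the 20 accessions was 1.49, against 1.76 over the 1743 accessions with a mean of 100 to 200 CPM. The labels do not say whether molecular identifiers were counted. If counts could not exceed 6561, a bound assumed after the values were seen (3 letters at 8 positions), the corrected mean of COX2 would be 5241 CPM and that of atp1a1a.4 2469.5 CPM. Under that assumption the CPM of the most abundant genes understates their share of transcripts, and more so the nearer a count is to the bound. For atp1a1a.4 replicate 4 gave 2502 CPM and the other libraries 1338 to 1713 CPM. With the assumed correction, replicate 4 was still the highest at 3567 CPM, against 1755 to 2901 CPM elsewhere.

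The sodium pump was represented by several alpha, beta and regulatory genes. Of the 18 genes counted in the Na,K-ATPase list, which leaves out fxyd2, 15 reached 10 CPM and 6 reached 100 CPM. Next to atp1a1a.4 stood its neighbours in the tandem array, atp1a1a.1 at 469.8 ± 62.2 CPM with a biological CV of 12.9% and atp1a1a.3 at 764 ± 386 CPM with 50.4%. The lowest, median and highest libraries of atp1a1a.3 held 156, 749 and 1525 CPM, the lowest being replicate 10 and the highest replicate 4. Replicate 10 was also lowest for atp1a1a.2, at 14.8 CPM against 48.6 to 197 CPM elsewhere, while its atp1a1a.4 was 1503 CPM. The copies are alike in sequence and may share reads, so the split between them is uncertain. The beta subunits atp1b1b (111 ± 28.8 CPM) and atp1b3a (84.2 ± 12.7 CPM) and the regulator fxyd3 (289.9 ± 41.7 CPM) were also counted in every library.

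Junction genes of epithelia were abundant, and their spread between libraries differed from gene to gene. The cadherin cdh17, a marker of the whole pronephric tubule and duct, stood at 1137 ± 93.1 CPM with a biological CV of 7.98%, against a median of 14.6% over the 5787 accessions at 50 CPM or more. Its lowest, median and highest libraries held 1001, 1132 and 1318 CPM. E-cadherin cdh1 stood at 324 ± 49.9 CPM. Claudins set which ions pass between cells, and 25 of 37 counted reached 10 CPM, with a median biological CV of 28.3% against 24.0% over all 11075 accessions. The highest were cldnb at 1222 ± 241, cldn3c at 738 ± 130.3, cldn3d at 616 ± 88 and cldn7b at 474 ± 60.1 CPM. The simple-epithelium keratins krt18a.1 and krt8 stood at 1656 ± 225 and 861 ± 115 CPM.

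Of 34 transcription factors listed for the pronephros, 28 were counted, 20 reached 10 CPM and 5 reached 100 CPM. pax2a and pax8 had no matched accession and are not analysed here. emx1 and irx3b, which act in intermediate and distal segments, stood at 158 ± 51.7 and 156 ± 53 CPM. The GDNF receptor ret, a marker of the caudal duct, stood at 107 ± 20.4 CPM. By contrast gata3, a duct marker at this age, had 7 counts at most in a library and 0 to 4.54 CPM. actl6a itself, the target of the morpholino in the libraries not used here, stood at 110.3 ± 14.7 CPM in the controls.

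Genes of distal salt transport were present in every library. slc12a3, the thiazide-sensitive Na-Cl cotransporter of the late distal segment, had a lowest, median and highest level of 223, 341 and 789 CPM. slc12a1, the Na-K-2Cl cotransporter of the early distal segment, had 73.5, 105 and 230.1 CPM. bsnd, the barttin subunit of kidney chloride channels, had 183, 231 and 478 CPM, and mal2, of apical membrane traffic, had 46.6, 82.1 and 187 CPM. stc1l, a stanniocalcin that lowers calcium uptake in fish, had 141, 250.4 and 569.7 CPM. Replicate 4 was the highest library for all 5, and replicate 9 the next for slc12a3, slc12a1, bsnd and mal2. Over the distal list, replicate 4 was the highest for 9 of 15 members at 10 CPM or more, against 21.8% of the 11075 accessions at that level. That list is not confined to salt transport, since it holds krt18a.1, krt8, cldnb and cdh17 too.

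Genes of proximal uptake showed the opposite order of libraries. lrp2a, which encodes megalin, stood at 8.43 CPM in replicate 4 and 10.8 CPM in replicate 9 and at 127 to 254 CPM in the other libraries. cubn, which encodes cubilin, had 23.3, 75.3 and 143 to 234 CPM in the same order, and its partner amn had 8.43, 43.2 and 102 to 130.3 CPM. Replicates 4 and 9 were below the rest for these 3 genes. The share of all accessions with such a split is not given here. The phosphate transporter slc34a1a had 3.24 and 6.18 CPM in them and 37.7 to 76.2 CPM elsewhere. The neutral amino acid transporter slc6a19a.1 had 21.4 and 12.7 CPM against 167 to 235 CPM. The glucose transporter slc2a2 had 7.78 and 37.5 CPM against 131 to 181 CPM. The nuclear receptor hnf4a, which acts in proximal tubule and liver, had 0.648 and 4.63 CPM against 24.5 to 48.1 CPM. Not all proximal genes followed: the scaffold pdzk1 had 288 and 279.9 CPM against 341 to 400.4 CPM, a much smaller step, and slc5a1 was highest in replicate 9 at 79.9 CPM.

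The water channel aqp8b, one of the 50 accessions above 1000 CPM, showed the same step. It stood at 183 CPM in replicate 4 and 168 CPM in replicate 9, and at 1302 to 1894 CPM in the other libraries. Of 12 aquaporins counted, 3 reached 10 CPM. Among 8909 accessions with a mean of 20 CPM or more, enpep, the membrane aminopeptidase A, and slc22a21 were among the 10 most like aqp8b over the 10 libraries, each with a Pearson r of 0.99 on log2 CPM (a description over libraries, with no test). Most opposite among named genes was pvalb6, a calcium-binding parvalbumin, with 122 and 119 CPM in replicates 4 and 9 and 2.51 to 10.5 CPM elsewhere. Over the proximal list, replicate 4 was the lowest library for 12 of 18 members at 10 CPM or more and replicate 9 for 4 of 18, against 22.5% and 9.85% of all accessions at that level. The list held 0.0885% and 0.116% of the counts of these libraries and 0.205% to 0.25% of the others. Replicate 4 is the shallowest library, while the total of replicate 9 was 2532215. The part that depth plays was not tested, and a shallow library is more often lowest and highest by counting error alone.

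**Figure D2:**
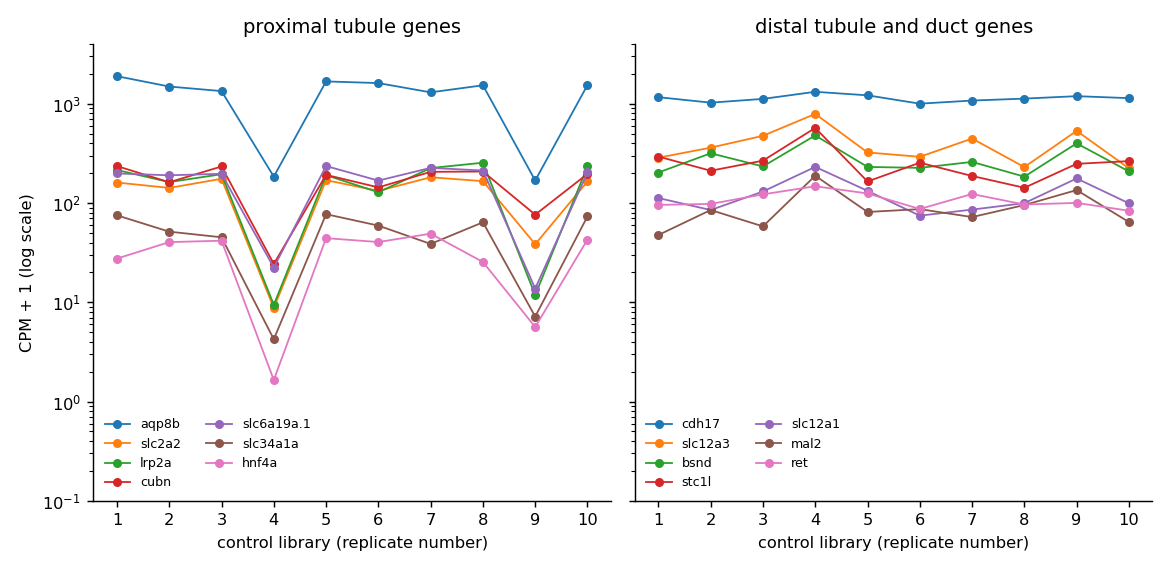
CPM + 1 on a log axis for 7 proximal (left) and 7 distal or duct genes (right) in each control library, 1 line per gene. Replicates 4 and 9 dip for lrp2a, cubn, slc34a1a, slc6a19a.1, slc2a2, hnf4a and aqp8b, and slc12a3 and slc12a1 are highest there.

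Hox genes, whose paralogue number follows position along the body axis (low numbers towards the head), differed between libraries. Of 46 Hox genes counted, 35 reached 10 CPM, led by hoxb6a at 156 ± 13.5 CPM with a biological CV of 7.11%, and by hoxb7a, hoxc9a and hoxb10a at 124 ± 30, 115 ± 31.8 and 99.7 ± 27.5 CPM. In replicates 4 and 9 the anterior hoxb1b had 11.7 and 21.2 CPM against 33.2 to 81.9 CPM in the others, and hoxb5b had 46 and 44 CPM against 72.1 to 106 CPM. The more posterior hoxd9a had 119 and 109 CPM against 19 to 86.1 CPM. These genes were picked after their values were seen, and the share of the 35, or of all accessions, with such a split is not given here. The Hox list held 0.211% and 0.224% of counts in replicates 4 and 9. It held 0.206% in replicate 7, where the proximal list held 0.245%. Replicate 1 stood at the other end, being lowest for 15 of 35 Hox genes against 12.8% of all accessions at 10 CPM or more. hoxd9a was 19 CPM there, hoxd10a 8.02 CPM against 19.2 to 82.2 CPM elsewhere, and hoxc11a 4.51 CPM against 19.1 to 67.6 CPM elsewhere.

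Podocyte genes had a median of their mean levels of 5.4 CPM, against 2.89 CPM over all 30714 accessions. Of 13 counted, 4 reached 10 CPM, against 36.1% of all accessions listed. Those 4 were mafba, nck1a, foxc1a and ptpro, which other tissues express too. The slit diaphragm gene nphs1 had a mean of 2.34 CPM, and podxl and wt1a 3.73 and 5.4 CPM. wt1a passed 10 CPM in replicates 1, 3 and 10, at 15.5, 14.1 and 15.7 CPM.

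Solute carriers formed a broad class, with 161 of 317 counted genes at 10 CPM or more and 32 at 100 CPM or more. Many of the abundant ones belong to mitochondria, such as slc25a5, slc25a55a (284 ± 44.7 CPM), slc25a11 (225 ± 26.7 CPM) and the aspartate/glutamate carrier slc25a12 (194 ± 22.3 CPM). At the cell membrane, the amino acid transporter slc38a5b stood at 320.5 ± 80.3 CPM, the sugar transporter slc2a12 at 319 ± 62.8 CPM, the sodium-coupled sugar transporter slc5a9 at 249.8 ± 85.4 CPM and the phosphate transporter slc20a1a at 227 ± 59.7 CPM. The class as a whole took 1.28%, 1.37% and 1.47% of counts in the lowest, median and highest library, so its sum varied little while single members such as slc2a2 ranged from 7.78 to 181 CPM.

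The V-type ATPase, which acidifies organelles and in some kidney cells the lumen, was counted through most of its subunits. Of 22 subunit and accessory genes 16 reached 10 CPM. Its highest were atp6v1g1 at 325 ± 34, atp6v1e1b at 305 ± 44.5, atp6v0d1 at 232 ± 20.9 and atp6v1f at 218 ± 27.1 CPM, with biological CVs of 9.85%, 14.2%, 8.06% and 11.7%. Of 85 potassium channel genes 10 reached 10 CPM, the highest being kcnk5b at 109 ± 22.2 CPM, kcnj16a at 97.7 ± 31.9 CPM and kcnk6 at 72.8 ± 19.7 CPM. Chloride channel genes beside bsnd were led by clcn5a, an endosomal exchanger, at 104 ± 16.6 CPM and clic1 at 93.4 ± 6.74 CPM. Carbonic anhydrase ca2 stood at 477 ± 101 CPM.

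The programme of motile cilia was broad, and the median biological CV of each of its lists was below the 24.0% of all accessions at 10 CPM or more. Over the 5787 accessions at 50 CPM or more the median was 14.6%. The lists of axoneme accessory genes (12%) and IFT (10.6%) were below that. Those of axonemal dyneins (17%), dynein assembly (16.2%), ciliary regulators (19%) and the transition zone (19%) were above it. The regulator list holds the Notch genes notch3 and jag2b beside transcription factors. The transition zone list holds genes of nephronophthisis and polycystic disease too. foxj1a, the transcription factor that switches on motile cilia genes, stood at 442 ± 54.6 CPM with a biological CV of 12% and a lowest, median and highest library of 375, 440.3 and 569 CPM. In the same list the regulators gmnc and rfx3 had means of 1.08 and 1.04 CPM. Only 14 of its 22 members were counted. Among the others, rfx2, mcidas, myb and ccno had no matched accession, so their levels are not known here. Among genes of the axonemal dyneins and their docking, 19 of 21 counted reached 10 CPM. They included the light chain dnal1 (161 ± 13.7 CPM), dnali1 of inner dynein arms (184 ± 18.1 CPM), the docking component odad3 (195 ± 20.7 CPM) and the heavy chain genes dnah5l (132 ± 28.6 CPM), dnah10 (92.3 ± 14.5 CPM) and dnah12 (91.9 ± 16.7 CPM). Long heavy chain transcripts and short light chain transcripts cannot be ranked on this scale. The median biological CV of these genes was 17% and the highest 41.8%, for dnai1.2. Dynein assembly factors reached 10 CPM for 16 of 18 counted, with a median biological CV of 16.2%, among them cfap298 at 208 ± 26.1 CPM and dnaaf6 at 197 ± 20.9 CPM.

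Accessory genes of the axoneme, which cover radial spokes, the central pair, the dynein regulatory complex and microtubule inner proteins, reached 10 CPM for 76 of 84 counted. Their median biological CV at that level was 12%, against 24.0% over all 11075 accessions. Single members varied far more: cfap300, also a dynein assembly factor, had 164 CPM in replicate 7 and 2.59 to 16.3 CPM elsewhere, a biological CV of 196%. The highest means were those of the centrin cetn4 at 327 ± 24.3 CPM, enkur at 315 ± 29.6 CPM, the alpha tubulin tuba1a at 268 ± 34.8 CPM and pierce1 at 256 ± 33.8 CPM. IFT and BBSome genes, which build and sort cargo for all cilia, reached 10 CPM for 27 of 37 counted, with a median biological CV of 10.6% and a highest of 202%, for ift122, at 77.1 CPM in replicate 4. ift46 stood at 223 ± 20.5 CPM and hspb11, an IFT component, at 180.1 ± 19 CPM. ift88 ranged from 80.3 to 99.2 CPM, kif3a, a subunit of the IFT motor, from 72.9 to 94.6 CPM and bbs7 from 77 to 93.2 CPM. Their spread was no larger than counting error, with an estimated biological CV of 0%. Replicate 7 was the lowest library for 25 of the 76 axoneme accessory genes, against 7.3% of all accessions, with steps as small as 286 CPM for cetn4 against 295 to 359 CPM elsewhere. Genes of the transition zone and of nephronophthisis and polycystic disease reached 10 CPM for 19 of 27 counted, among them tmem231 at 122 ± 20.7 CPM and b9d1 at 108 ± 15.2 CPM.

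Stress genes were abundant and some moved together between libraries. Of 39 immediate early genes 32 reached 10 CPM, with atf3 at 1069.9 ± 187 CPM and fosab at 947 ± 194 CPM, both transcription factors that rise within minutes to hours of stress. The inducible chaperone hsp70l had 255, 1002 and 1915 CPM in its lowest, median and highest library, from replicate 2 to replicate 8, and hsp70.3 had 239, 839 and 1632 CPM with the same 2 libraries at the ends. The co-chaperone dnajb1b followed with 116 CPM in replicate 2 and 683 CPM in replicate 8. The constitutive hspa8 ranged only from 809.7 to 1096 CPM. Replicate 8 was the highest library for 12 of 23 heat shock genes, against 11.3% of all accessions. The hsp70 copies are alike in sequence, so the split between them is uncertain. The protocol in the labels includes warm enzyme treatment, and its part in these levels was not tested.

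Ribosomal protein genes took 3.5%, 4.67% and 5.53% of counts in the lowest, median and highest library. Replicate 1 was the highest for 45 of 72 of them, against 9.57% of all accessions, and replicate 9 the lowest for 57 of 72, against 9.85%. rpl19 stood at 1668 CPM in replicate 1 and 1050.3 CPM in replicate 9. The 13 genes of the mitochondrial genome took 1.34%, 1.59% and 2.16% of counts, while nuclear genes of oxidative phosphorylation took 4.11%, 4.64% and 5.31%, and replicate 7 was the lowest for 41 of 89 of these, against 7.3% of all accessions.

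Genes of neighbouring tissues were among the most variable between libraries. The skeletal muscle list held 0.0573%, 0.555% and 1.37% of counts in its lowest, median and highest library, from replicate 4 to replicate 1. Cardiac-type alpha actin actc1b, which embryonic somites express, stood at 2535, 1812 and 1808 CPM in replicates 1, 6 and 10 and at 57.7 and 50.6 CPM in replicates 3 and 4. The fast myosin light chain mylpfa had 1.3, 409.9 and 1238 CPM and ckma, muscle creatine kinase, 9.07, 273 and 752 CPM. Of 33 muscle genes at 10 CPM or more, replicate 4 was lowest for 26, replicate 1 highest for 14 and replicate 6 for 10, against 22.5%, 9.57% and 6.65% of all accessions. Replicate 6 led for slow-fibre genes: smyhc1, slow myosin heavy chain, had 451 CPM there, 359 CPM in replicate 1 and 0 to 131 CPM elsewhere, and tnnc1b had 798 CPM against 3.88 to 317 CPM elsewhere. The enolase eno3, in the same list, did not follow, with 310.4 to 440.2 CPM.

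Blood showed a different set of libraries. The beta globin hbbe1.1 stood at 321 CPM in replicate 3 and 451 CPM in replicate 6 and at 8.93 to 28.9 CPM in the rest, and the alpha globin hbae1.1 at 361 and 389.6 CPM against 1.54 to 33.7 CPM. The blood list took 0.199% and 0.224% of counts in these libraries and 0.0334% to 0.044% in the others. Its member with the highest mean, lmo2, ranged from 88.7 to 139 CPM, highest in replicate 4. Globin copies are alike in sequence and their split is uncertain.

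Epidermal, neural, mesenchymal and endodermal genes each varied in their own way. The keratins cyt1 and cyt1l were highest in replicate 6, at 364 and 362 CPM, and lowest in replicate 4, at 13.6 and 9.72 CPM. icn, a small calcium-binding protein gene, stood at 999 CPM in replicate 9 and 123.4 to 367 CPM elsewhere. Of 28 neural genes 7 reached 10 CPM, and after tuba1c (253 ± 43.7 CPM) the next was fabp7a at 47.4 ± 25.8 CPM. Replicate 1 was the highest for 9 of 12 genes of neural crest and mesenchyme at 10 CPM or more, against 9.57% of all accessions. The collagen col1a1a had 159.8 CPM there and 0 to 112 CPM elsewhere, and the pigment gene tyrp1b 152 and 5.19 to 26.6 CPM. A member can reach a mean of 10 CPM through the library where it is high. Counts of highest members may thus partly follow from that filter, in the other lists too. Replicate 7 was the highest for 3 of 7 endoderm and pancreas genes at 10 CPM or more (foxa3, foxa1 and gata5), against 8.12% of all accessions, and for 0 of 2 in each of the notochord and liver lists. Genes of lower mean, chosen after their values were seen, were also high there. shha had 61.8 CPM there and 0.308 to 6.95 CPM elsewhere, the plasma protein gene ambp 70.9 and 0 to 0.777 CPM, and the pancreatic aquaporin aqp12 53.6 and 0.501 to 8.08 CPM. The islet hormone gene ins was found in each library at 22.6 to 52.6 CPM. fgb, which encodes a fibrinogen chain, had 3.24, 128 and 191 CPM, lowest in replicates 4 and 9 at 3.24 and 38.2 CPM. Of the 23 endothelial and leukocyte genes counted 3 reached 10 CPM.

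**Figure D3:**
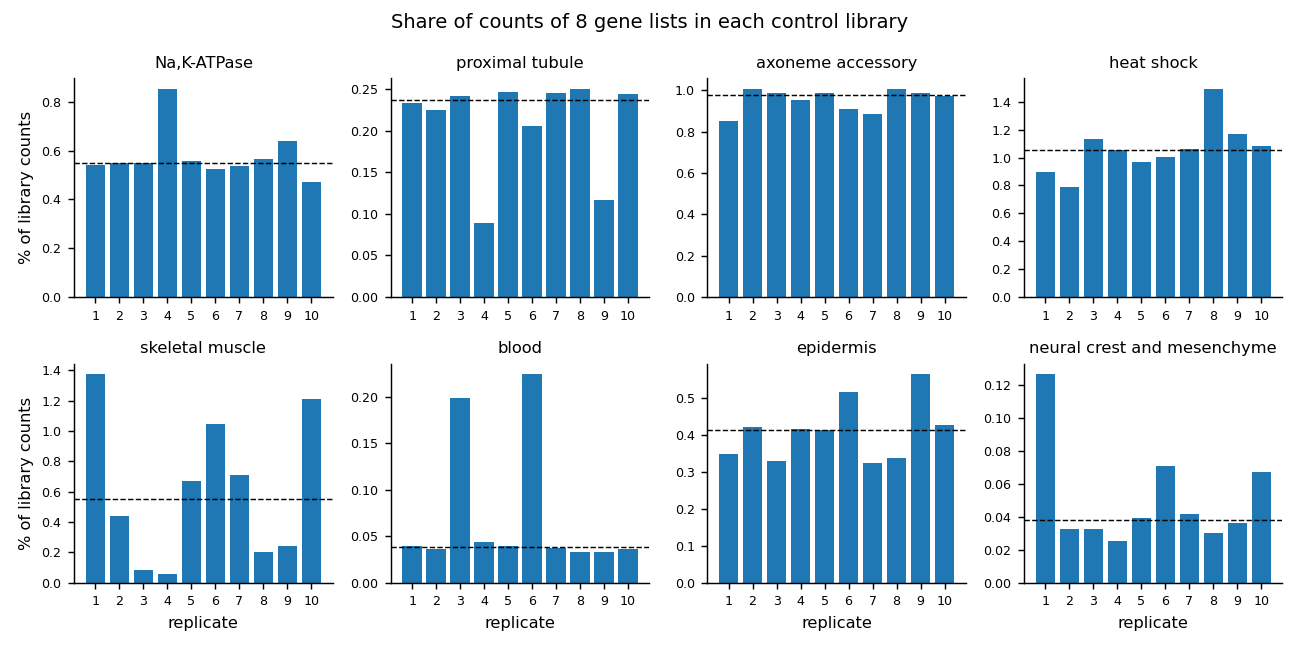
Percent of library counts taken by 8 gene lists in each control library, with bars from 0, a separate scale in each panel and a dashed line at the median. The muscle panel runs from 0.0573% in replicate 4 to 1.37% in replicate 1, blood is raised in replicates 3 and 6, and the axoneme panel is nearly flat.

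Variation between the libraries was small for most accessions at 50 CPM or more, and larger where accessions of lower level were included. Over the 5787 accessions at 50 CPM or more, the biological CV had a median of 14.6%, with the middle 50% of accessions between 10.7% and 21.2%. The median CV expected from counting alone was 6.41%. The biological CV was below 10% for 1196 accessions and above 100% for 35. Over all 11075 accessions at 10 CPM or more, its median was 24.0%. Among the 10 least variable above 100 CPM were xrcc5, a DNA repair gene, at 132 ± 6.66 CPM, the ubiquitin-conjugating enzyme ube2na at 226 ± 10.2 CPM, the accession XM_009297716.3, zmat2, the cyclin-dependent kinase inhibitor cdkn1bb, mphosph8, dnajb12a, the casein kinase csnk1a1 at 240.1 ± 13.4 CPM and mapkapk2a, each with a biological CV of 4.26% or less.

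The 100 accessions with the largest biological CV fell into 15 clusters by the correlation of their log2 CPM (average linkage at a distance of 0.5, a description of the values that chose them). The largest held 67 accessions, 21 of them in the muscle list. A cluster of 6 held the globins hbae1.1, hbbe1.1, hbbe1.2 and hbae3 with 2 unnamed accessions that were high in replicates 3 and 6. Another 6, wu:fa26c03, zgc:174154, zgc:174855, MGC174155, si:dkey-26g8.4 and wu:fb36g12, were high in replicate 1 alone. zgc:174855 stood at 632 CPM in replicate 1, 16 CPM in replicate 2 and at most 4.25 CPM in the rest. MGC174155 and si:dkey-26g8.4 had the same count in every library, so they cannot be told apart. In all, 466 of 14603 accessions with at least 100 counts shared their 10 counts with another accession, in 224 groups. The chemokine gene cxcl12a, in the cluster of 67, stood at 320.2 CPM in replicate 1 and 0 to 83.2 CPM elsewhere.

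**Figure D4:**
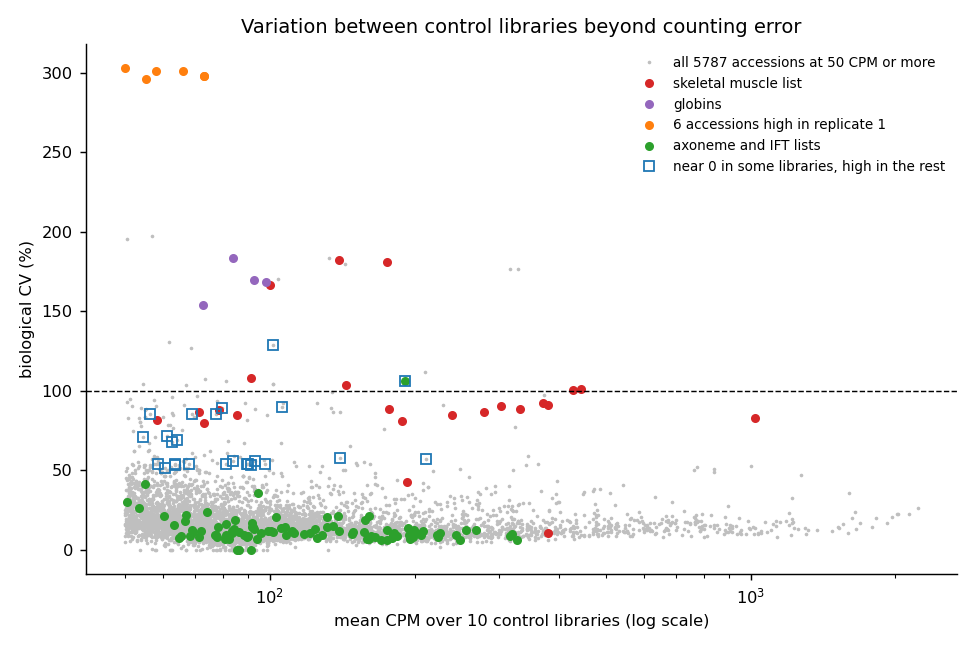
Biological CV in percent against mean CPM (log axis) for 5787 accessions, 1 grey point each, with gene lists in colour and the dashed line at 100%. Axoneme and IFT genes lie low except meig1, muscle genes (eno3 aside) and globins lie high, and squares mark accessions near 0 in some libraries and high in the rest.

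Some accessions were near 0 in several libraries and high in the rest. Under a rule set after the values were seen (mean of 20 CPM or more, each library under 3% or over 40% of the highest, at least 2 of each), 46 of 8909 accessions were near 0 in some libraries and high in the rest, 0.516%. Curated accessions, whose identifiers begin with NM, made up 44 of the 46 (95.7%), against 65.9% of the 8909. The libraries near 0 formed 41 different patterns over the 46, and each library was near 0 for 11 to 28 of them. clta, clathrin light chain, had 220.4, 276, 236 and 276 CPM in replicates 4, 6, 7 and 10 and at most 2.02 CPM in the other 6. cltca, a clathrin heavy chain gene, was near 0 in replicates 7 and 10, at 1.3 and 0.321 CPM, and 122 to 241 CPM elsewhere. meig1 had 456, 382, 389.6, 331 and 352 CPM in 5 libraries and at most 0.648 CPM in the other 5. The Golgi SNARE gene gosr1 was near 0 in replicates 3 and 7, at 1.73 and 1.3 CPM against 92.6 to 145 CPM. sona, just outside the rule, showed the reverse, with 241 and 296 CPM in replicates 3 and 7 and 2.59 to 9.52 CPM in the other 8. The 46 include genes that vary with the tissues above, such as smyhc3 and tnni1d of slow muscle, high in replicates 1, 5 and 6, and si:ch211-202p1.5, near 0 in replicates 4 and 9 and among the 10 most like aqp8b. The cause was not tested, and a value near 0 for such an accession does not by itself show that the gene was silent.

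**Figure D5:**
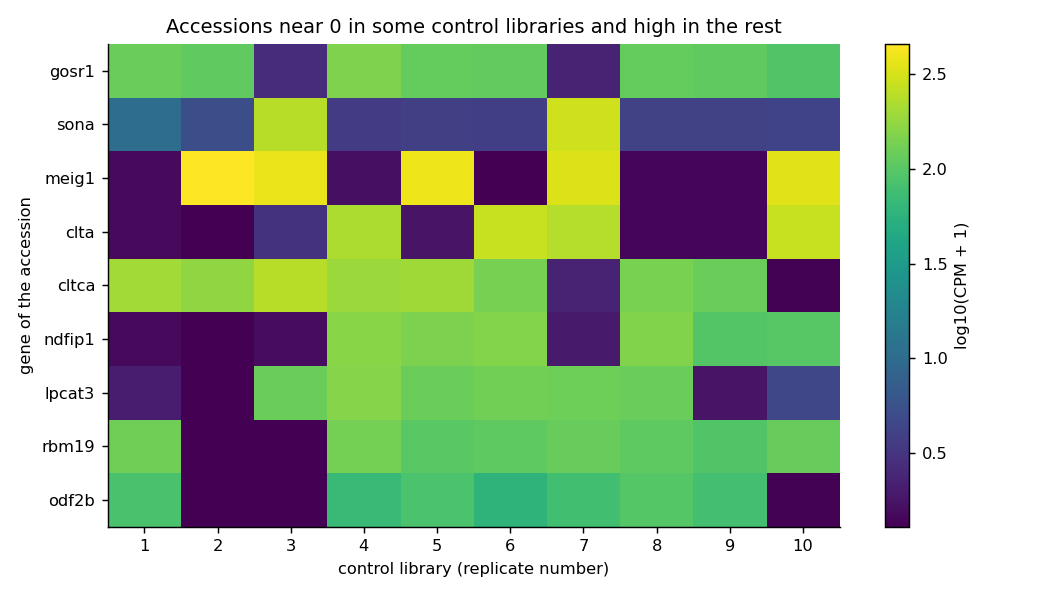
log10(CPM + 1) of 9 genes in each control library, dark for near 0 and bright for high. gosr1 is dark in replicates 3 and 7, where sona (just outside the rule) is bright, and meig1 and clta follow other patterns.

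The level of atp1a1a.4, whose promoter drives the GFP used for picking, was set against 6 genes across the 10 libraries on log2(CPM + 1): cdh17 and the member with the highest mean of the dynein, muscle, blood, epidermis and neural lists. With cdh17 Pearson r was 0.71 (two-sided permutation p = 0.0194, 0.112 after Benjamini-Hochberg adjustment over 6) and Spearman rho 0.73 (p = 0.0204, adjusted 0.122). With lmo2 r was 0.82 (permutation p = 0.0375, adjusted 0.112) and rho 0.42 (p = 0.235, adjusted 0.581). With actc1b of muscle r was -0.47 (permutation p = 0.179, adjusted 0.358) and rho -0.09 (p = 0.812, adjusted 0.975). With dynlrb1 r was 0.14 and rho 0.31, with cldnb 0.09 and 0.33, and with tuba1c 0.23 and -0.01 (adjusted permutation p = 0.821, 0.837 and 0.821 for r and 0.581, 0.581 and 1 for rho). None passed the adjusted threshold. These are relations with single genes and do not stand for the content of a tissue. lmo2 was highest in replicate 4, whereas the globins of the blood list were high in replicates 3 and 6. cldnb is a member of the distal list too. Without replicates 4 and 8, the libraries farthest from the median of atp1a1a.4, r was 0.60 with cdh17, 0.49 with lmo2 and 0.11 with actc1b. Without replicate 4 alone r was, in the same order, 0.38, 0.12 and 0.27, so the 3 values rest largely on replicate 4. Within the 6 T libraries alone r was 0.47 with cdh17, 0.29 with dynlrb1, 0.37 with actc1b, -0.39 with lmo2, 0.70 with cldnb and -0.03 with tuba1c. The 4 AA libraries are too few for a value.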

How the data were processed

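RNA was measured by sequencing in 10 control libraries, grouped by their titles. The deposited table holds whole-number counts per RefSeq accession. The submitters' processing notes name cutadapt, FastQC, STAR, featureCounts, edgeR and the GRCz11 build, with no parameters or versions. Counting that drops or splits reads of near-identical copies could lower their values. Symbols came from a RefSeq table of another assembly (GRCz12tu), used for names only; 19213 of 30714 accessions matched, with 87.3% of counts.

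From the counts, TMM factors (0.963 to 1.05) and CPM were computed with edgeR 4.0.16 in R 4.3.3. Biological CV is the square root of the squared CV less the part expected from counting. Barcode sets were compared with edgeR's quasi-likelihood test over all 14995 accessions kept by filterByExpr, with Benjamini-Hochberg adjustment at 0.05. On simulated data of that comparison (14552 accessions, 200 changed) it recovered 69% of 4-fold and 6% of 2-fold changes. The simulation gave every accession the same biological CV of 48.7%, edgeR's common estimate. Recovery for accessions of smaller or larger spread was not simulated. Correlations used 100000 permutations with scipy 1.17.1. Alternatives were library totals, DESeq2 1.42.0, sums per symbol, other thresholds and leaving out each replicate.

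The rule for named genes took a fixed set of 8, the 20 highest means, up to 4 highest members of each list, the 20 largest biological CVs at 50 CPM or more and the 10 smallest at 100 CPM or more. Other genes, and the rule for accessions near 0, were chosen after their values were seen. Members and lists were chosen with earlier results of these data known. Some genes are not reported here by name, but remain in the counts and shares of their lists.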

Additional observations from a re-analysis of the deposited data

Results flagged for a closer look

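In each group of 10 values, the gap between the highest or lowest library and its nearest neighbour was divided by the whole range, and values above Dixon's 95% critical value for 10 samples are given here. Chance alone passes about 1 in 20 sets that follow a normal distribution and were not chosen by their values. Whether CPM values follow that distribution was not tested. Of 5 library measures none passed, of 42 list and class shares 3 passed, and of 188 genes (those the rule named, less 4 not reported here) 31 passed, each through its highest library. The genes include 20 chosen for their large spread between libraries, 10 of which passed, and MGC174155 and si:dkey-26g8.4 have the same counts, so the number passing cannot be set against chance.

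Replicate 4 was the highest library for 12 of these genes. The ratio was 0.678 for atp1a1a.4, 0.680 for atp1b1a, 0.548 for fxyd2, 0.471 for slc25a5, 0.559 for ccn2a, 0.560 for kcnk5b, 0.499 for hoxb10a, 0.489 for hoxb7a, 0.614 for lmo2, 0.620 for pnp4a, 0.496 for abcb8 and 0.481 for tmem231. The Na,K-ATPase list, which leaves out fxyd2, gave 0.558, with 0.853% of counts in replicate 4 and 0.472% to 0.64% elsewhere. With the assumed ceiling on counts, atp1a1a.4 (0.368), fxyd2 (0.286), slc25a5 and foxj1a (0.43) no longer passed. Replicate 4 has the fewest counts, and the part of depth was not tested.

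Replicate 1 was the highest for 7 genes, all among the 20 chosen for their large spread. The 6 accessions that were high there alone gave 0.974 for MGC174155 and for si:dkey-26g8.4, 0.978 for wu:fa26c03, 0.980 for wu:fb36g12, 0.979 for zgc:174154 and 0.975 for zgc:174855. The chemokine cxcl12a gave 0.740. The neural crest and mesenchyme list gave 0.551, with 0.126% of counts in replicate 1 and 0.0252% to 0.0705% elsewhere.

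Replicate 7 was the highest for the liver genes ambp (0.989) and apoa1b (0.853), for aqp12 (0.857), for shha (0.892) and for foxa1 (0.498). These genes were named for their mean within a list, and replicate 7 itself raised that mean. Their ratios are thus not independent of how they were chosen. Replicate 6 was the highest for the muscle genes pvalb4 (0.751), tnnc1b (0.605) and tnnt2d (0.517), also chosen for their large spread. Replicate 8 was the highest for foxj1a (0.474) and odad1 (0.533), and for the heat shock list (0.467), which took 1.49% of counts there and 0.792% to 1.17% elsewhere. Replicate 9 was the highest for icn (0.721) and replicate 5 for gap43 (0.563).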

How the results depend on the processing

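The count of accessions at 10 CPM or more stayed within 1.5 times of 11075 under library totals, sums per symbol, the median, the assumed ceiling and each left-out replicate (10995 to 11182). The 20 highest accessions held 5.92% of counts with the assumed ceiling, an alternative added after the values were seen, and 3.33% to 3.49% with a replicate left out. Biological CV passed 100% for 145 accessions at a mean of 20 CPM or more, for 16 at 100 CPM or more, and for 27 to 47 with a replicate left out. The barcode sets gave 2 calls with no filter on low counts and 9 with DESeq2, and 0 to 2 with a replicate left out, 0 without replicate 1 or replicate 3. Without replicate 2 the 1 call was another accession in the other direction, so the call of cdc42ep4a was lost without replicate 1, 2 or 3. The correlation of atp1a1a.4 changed sign with the assumed ceiling for dynlrb1 (-0.036), cldnb (-0.11) and tuba1c (-0.0026), with library totals for cldnb (-0.053), and without the 2 farthest libraries for actc1b (0.11) and tuba1c (-0.15). With the assumed ceiling r fell from 0.71 to 0.33 for cdh17 and from 0.82 to 0.56 for lmo2, and was -0.52 for actc1b (adjusted permutation p = 0.718, 0.375 and 0.375). With a replicate left out r ranged from 0.38 to 0.76 for cdh17, from 0.12 to 0.91 for lmo2, from -0.63 to 0.27 for actc1b, from -0.0069 to 0.48 for cldnb, from -0.012 to 0.27 for dynlrb1 and from -0.37 to 0.38 for tuba1c. Without replicate 8 the relations with cdh17 (adjusted permutation p = 0.0344) and lmo2 (0.0362) passed the threshold, and the cause was not tested. Of 192 genes that the rule named, 36 moved in mean CPM by more than 1 SD with the assumed ceiling and none with library totals. CPM per coding length was not run, since no transcript lengths were used here. No paired analysis was possible because only control libraries were used. Depth limits low genes to about 1 or 2 CPM, and the top counts are limited as described.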

Other observations

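Genes of cell division were present in the control duct. Of 28 cell cycle genes counted 24 reached 10 CPM, with the chromatin protein genes hmgb2a and hmgb2b at 979 ± 102 and 345 ± 53.9 CPM, the replication clamp pcna at 279 ± 27.5 CPM, ccnd1, a G1 cyclin, at 154 ± 24.6 CPM and the mitotic kinase cdk1 at 143 ± 28.9 CPM. The list took 0.32%, 0.356% and 0.375% of counts in the lowest, median and highest library. Histone genes reached 10 CPM for 16 of 17 counted, led by histh1l1 at 883 ± 182 CPM and h2ax1 at 798 ± 105 CPM. Tubulin genes reached it for 15 of 18, led by tubb4b at 747 ± 122 CPM and tuba8l4 at 460.5 ± 81.5 CPM. Elongation and initiation factors took 0.902%, 1.09% and 1.2% of counts, led by eef1a1l1 at 1114 ± 179.9 CPM.

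Of 34 collagen genes 9 reached 10 CPM, against 36.1% of all accessions listed, and none reached a mean of 100 CPM, with col28a1a at 75.8 ± 20.1 CPM and the basement membrane collagen col4a1 at 58.5 ± 21.4 CPM. Of 34 ABC transporter genes 16 reached 10 CPM, the highest being abce1, a ribosome recycling factor, at 144 ± 19.3 CPM. Of 23 TRP channel genes 7 reached it, with trpm7 at 65 ± 22.5 CPM, 18.1 CPM in replicate 4. In the notochord list ccn2a, which other tissues express, stood at 397 ± 122 CPM, and the next, col9a3, at 10.8 ± 11.1 CPM.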
